A study of Homo sapiens with 7 samples.

Results

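NAALADL2 and TBL1XR1 are adjacent protein-coding genes on the long arm of chromosome 3 whose promoters were joined to many distal regions by H3K27ac HiChIP. They were selected on that number, the count of linked distal anchors in these same lists, so the counts describe the choice and are not tested. Members were the loops with an anchor over a 500 bp window centred on any annotated start site of either gene. By this rule 105 of 163530 loops in Ishikawa, 90 of 42027 in T-47D and 290 of 149226 in LNCaP belonged to the 2 genes, 485 of 354783 in all. A loop joins 2 different regions of 1 chromosome, its anchors, and a distal anchor overlaps no promoter of a protein-coding gene. The strength of a loop is the number of read pairs found between its anchors.

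H3K27ac HiChIP ligates neighbouring chromatin ends and then enriches, with an antibody, for DNA that carries acetylated lysine 27 of histone H3. The study used it in 3 established human lines of cancer cells, endometrial adenocarcinoma (Ishikawa, 4 samples), T-47D (ductal carcinoma of the breast, 1 sample) and LNCaP (prostate carcinoma, 2 samples). Of the Ishikawa samples, 2 had DMSO as vehicle and 2 had 10 nM beta-estradiol for 1 h, and no treatment is given for T-47D and LNCaP. The deposited data form 1 list per cell line, so no value has a replicate error and no test was possible. Nothing ties the Ishikawa counts to a treatment, so DMSO and beta-estradiol were not compared. Chromatin was cut with DpnII in Ishikawa and MboI in the other lines, and sonication, read length and sequencing depth followed the same split, so a comparison with Ishikawa is also one of protocols, and the parts of line and protocol cannot be told apart.

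TBL1XR1 encodes a WD40-repeat protein of nuclear receptor corepressor complexes, which bring histone deacetylase activity to nuclear receptors and other transcription factors, and in which TBL1XR1 takes part in the exchange of corepressors for coactivators. NAALADL2 belongs by sequence to the glutamate carboxypeptidase family, whose best known member is FOLH1, the prostate-specific membrane antigen. H3K27ac marks active promoters and enhancers, and an H3K27ac loop from a promoter to a distal region is the usual way to nominate a candidate enhancer of a gene. A loop is a contact, and does not by itself show regulation.

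On hg19 (GRCh37), NAALADL2 (ENSG00000177694.16_8) occupies chr3:174156363-175528336 on the plus strand, 1372 kb, with 10 annotated start sites. TBL1XR1 (ENSG00000177565.19_14) occupies chr3:176737128-176945788 on the minus strand, 209 kb, with 36 start sites. The genes point towards each other across a gap of 1209 kb that holds no protein-coding gene. GENCODE places 10 genes wholly in the gap, 4 lncRNAs, 5 processed pseudogenes and 1 rRNA pseudogene, and the longest is LINC01208 at chr3:176133227-176585626.

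The promoters themselves differed in sequence, and those at the centre of the loops below are shown as the 250 bases before the start site, 5′ to 3′ on the gene's strand, with none in an exon. NAALADL2 has a first group of start sites, the outermost at chr3:174156363 and 4 at chr3:174158735-174158777, and an inner group at chr3:174577112-174581606, and TBL1XR1 starts 24 of its 39 transcripts from 21 sites at chr3:176914141-176915270. Capitals mark matches to GGGCGG (the GC box) on either strand, and matches may overlap.
NAALADL2, 4 clustered sites of the first group, chr3:174158485-174158734: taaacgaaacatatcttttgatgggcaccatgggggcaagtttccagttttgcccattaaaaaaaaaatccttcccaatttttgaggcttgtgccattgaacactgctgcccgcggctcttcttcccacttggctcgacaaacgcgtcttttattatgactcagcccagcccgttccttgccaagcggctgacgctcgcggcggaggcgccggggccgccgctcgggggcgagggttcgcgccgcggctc
NAALADL2, inner group, chr3:174576862-174577111: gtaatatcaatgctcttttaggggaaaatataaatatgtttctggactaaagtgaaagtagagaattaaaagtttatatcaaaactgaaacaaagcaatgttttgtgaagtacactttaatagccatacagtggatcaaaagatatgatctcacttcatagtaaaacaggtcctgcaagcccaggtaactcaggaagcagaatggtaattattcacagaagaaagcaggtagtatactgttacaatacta
TBL1XR1, main group, chr3:176915271-176915520: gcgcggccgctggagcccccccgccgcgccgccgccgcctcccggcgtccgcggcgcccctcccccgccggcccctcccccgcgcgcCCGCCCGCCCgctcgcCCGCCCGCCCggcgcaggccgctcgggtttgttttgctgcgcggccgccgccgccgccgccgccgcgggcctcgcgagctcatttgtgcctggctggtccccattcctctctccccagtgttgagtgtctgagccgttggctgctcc
GC content of these windows was 57.2% for the 4 clustered sites of the first NAALADL2 group, 32.8% for the inner group and 81.2% for TBL1XR1, against a median of 59.6% over 20163 protein-coding promoters of the same length. The TBL1XR1 window held 4 GC boxes, where 48.7% of all promoters held at least 1, and neither NAALADL2 window held one. The windows before the remaining sites of both NAALADL2 groups, chr3:174156363 and chr3:174581606, had 28.8% and 41.6%. The 20163 promoters were taken at the 5′ end of each gene record, so the windows shown and that background were placed differently. At the 5′ end of its record, chr3:176945788, TBL1XR1 had a GC content of 47.2% and 0 GC boxes. NAALADL2 at its own, chr3:174156363, had 28.8% and 0.

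The lists differed in the read pairs and in the spans they held. Their loops were supported by 1040329 read pairs (Ishikawa), 351260 (T-47D) and 1805322 (LNCaP), each with a lowest count of 3. These totals are read pairs within listed loops and not sequencing depth, which per sample was highest for Ishikawa. Scaling or thinning to them is therefore no correction for sequencing depth. The LNCaP list held no loop over 2 Mb, whereas Ishikawa had 144 and T-47D 238, 179 of the latter at 3 read pairs. Within the 3 Mb around both genes, anchors covered 43.9% (Ishikawa), 5.46% (T-47D) and 31.5% (LNCaP) of the sequence. This stretch carried 0.374% (Ishikawa), 0.344% (T-47D) and 2.57% (LNCaP) of all read pairs.

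Both genes had linked distal anchors in every line, where 52.5% (Ishikawa), 34.7% (T-47D) and 52.4% (LNCaP) of protein-coding genes did. NAALADL2 was linked to 52 (Ishikawa), 28 (T-47D) and 74 (LNCaP) distal anchors. TBL1XR1 was linked to 25, 37 and 66. Among 20163 protein-coding genes NAALADL2 stood in place 3, 5 and 1 in the 3 lists, and TBL1XR1 in place 47, 1 and 4. The gene with more linked anchors was therefore NAALADL2 in Ishikawa and LNCaP and TBL1XR1 in T-47D.

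Read pairs gave the same order. The loops of NAALADL2 held 428 read pairs in Ishikawa (95% exact Poisson interval 388 to 471), 310 in T-47D (276 to 347) and 4682 in LNCaP (4549 to 4818). Those of TBL1XR1 held 228 (199 to 260), 449 (408 to 493) and 2709 (2608 to 2813). Such intervals cover counting error only, and PCR copies are not independent molecules. Per 100000 read pairs of the list, NAALADL2 had 41.1 (Ishikawa), 88.3 (T-47D) and 259 (LNCaP), and TBL1XR1 had 21.9, 128 and 150. For both genes Ishikawa was lowest and LNCaP highest, with no overlap of the counting intervals between lines. The counts are not corrected for DNA copy number, whose part in the differences between lines was not tested. For TBL1XR1 the order of T-47D and LNCaP turned with start sites of protein-coding transcripts alone, which gave 121 in T-47D and 93.6 in LNCaP. By total read pairs the genes ranked lower than by linked anchors, with NAALADL2 in place 79, 135 and 11 and TBL1XR1 in place 316, 55 and 29.

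**Figure D1:**
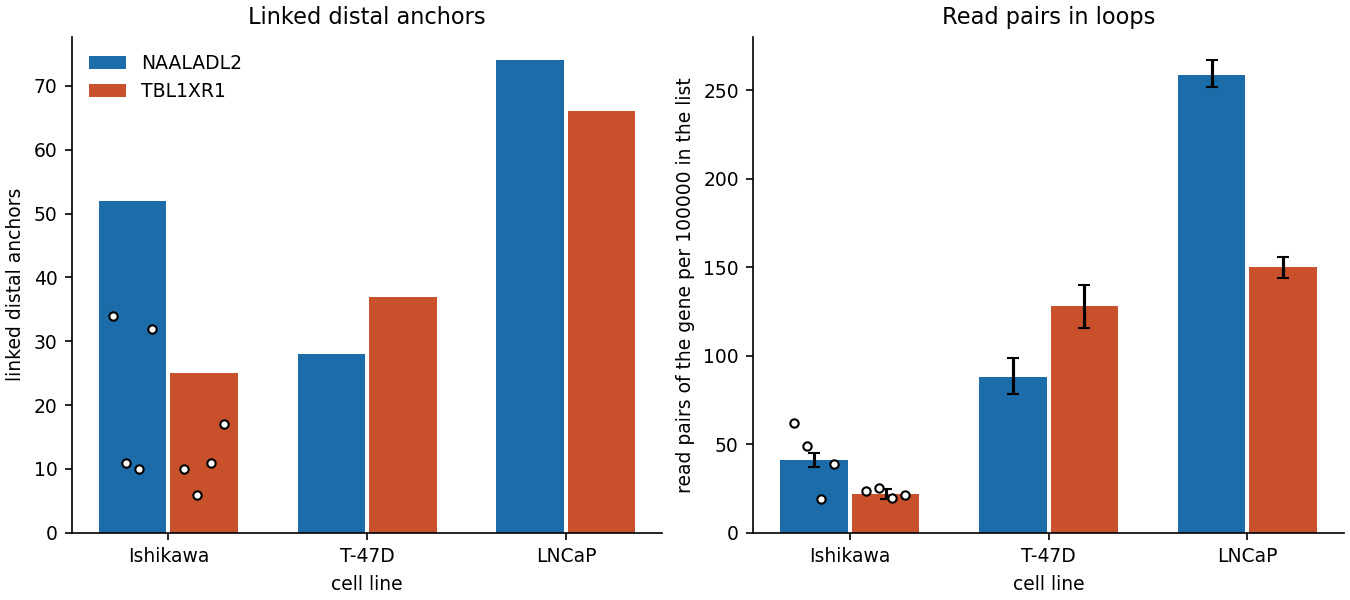
Linked distal anchors (left) and read pairs per 100000 read pairs of the list (right) of NAALADL2 (blue) and TBL1XR1 (orange) in each cell line, with bars as the value of the list, error bars as 95% exact Poisson intervals and white points as the 4 parts of the Ishikawa list taken alone. NAALADL2 is the taller bar in Ishikawa (52 against 25 anchors) and LNCaP (74 against 66), and TBL1XR1 in T-47D (37 against 28).

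Rows of the Ishikawa list came in 4 sorted parts, and no source says which samples each holds. Taken alone, the parts gave NAALADL2 34, 11, 10 and 32 linked distal anchors and TBL1XR1 10, 6, 11 and 17. NAALADL2 had 62.1, 48.8, 19.2 and 38.7 read pairs per 100000 in these parts, a wider spread than that of TBL1XR1 at 23.4, 25.5, 19.6 and 21.5. In 1 part the genes were level, at 19.2 and 19.6. Of the NAALADL2 loops 19 of 65 (29.2%) and of the TBL1XR1 loops 12 of 40 (30%) were found in 2 or more parts, beside 33.8% of all Ishikawa loops.

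NAALADL2 was looped from both of its start-site groups. In Ishikawa the first group lay in an anchor of 12.7 kb with 16 partners and 114 read pairs, the inner group in an anchor of 24.7 kb with 43 partners and 258 read pairs, and a further anchor over the start site at chr3:174842196 had 7 partners and 59 read pairs. In T-47D the first group had 25 partners and 164 read pairs, and the inner group was split over 2 anchors with 9 and 17 partners and 80 and 140 read pairs. In LNCaP the first group had 52 partners and 1478 read pairs, and the inner group, in an anchor of 26.6 kb, had 74 partners and 3316 read pairs. The inner group thus held more partners than the first in Ishikawa and LNCaP, in anchors several times wider than the median anchor (5.1 and 3.23 kb).

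Both NAALADL2 groups often met the same distal regions in LNCaP. There 50 of the 74 linked distal anchors were joined to both promoter anchors, and they held 97.1% of the gene's distal read pairs. In Ishikawa 12 of 52 linked anchors were joined to more than 1 promoter anchor of the gene, with 43.5% of the distal read pairs, and in T-47D 9 of 28, with 66.5%.

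The strongest distal loop of NAALADL2 ran to an intron of the gene in LNCaP and T-47D and to its upstream flank in Ishikawa. In LNCaP the inner group was joined by 787 read pairs (733 to 844) to an intronic anchor at chr3:174646093-174683492, 77.3 kb away, and the first group reached the same anchor over 509 kb with 178. The next were loops of the inner group to chr3:175189402-175218577 with 323 read pairs over 617 kb, to chr3:175042012-175072545 with 196 over 470 kb, and to chr3:175019921-175038928 with 170 over 442 kb. These 5 loops made up 35.3% of the gene's read pairs in LNCaP. Their partner anchors were wide, at 37.4, 29.2, 30.5 and 19 kb in the order given, where the median LNCaP anchor was 3.23 kb. The part of anchor width in the read pairs was not tested. In T-47D the strongest loop joined both anchors of the inner group (45 read pairs), and the strongest distal loops ran from the first group to introns at chr3:174200354-174204761 (29 read pairs) and chr3:174355547-174359409 (10) and from the inner group to chr3:174842862-174846129 (15). The last of these anchors lies beside the start site at chr3:174842196 but outside its window. It falls within the wider Ishikawa anchor that was counted as a promoter anchor of that site. The T-47D list also joined the first group to the inner group over 423 kb with 22 read pairs. In Ishikawa the top loops ran from the first group to chr3:174133447-174141132 (30 read pairs, 20.2 to 42.8) and chr3:174145951-174150987 (25), both upstream of the gene, and from the inner group to an intron at chr3:174550318-174555938 (24).

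TBL1XR1 was looped mainly from its GC-rich main promoter in T-47D, and from several start sites in the other lines. In T-47D the main promoter anchor had 38 partners and 426 read pairs, and 1 other promoter anchor had 6 partners and 34 read pairs. In LNCaP 5 promoter anchors were found, of which the main one had 67 partners and 1473 read pairs and the one over the start site at chr3:176769323, of an annotated nonsense-mediated decay transcript, had 45 partners and 959 read pairs. In Ishikawa 6 promoter anchors were found, and the anchor at that inner site led with 22 partners and 136 read pairs, ahead of the main promoter with 8 partners and 51. With start sites of protein-coding transcripts alone, TBL1XR1 kept 12 linked distal anchors and 6.54 read pairs per 100000 in Ishikawa.

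The leading distal partner of TBL1XR1 in T-47D and LNCaP lay beyond the 5′ end of the gene, 162 kb from the main promoter in T-47D and 178 kb in LNCaP. In T-47D the main promoter was joined to chr3:177074054-177078213 by 56 read pairs (42.3 to 72.7), to chr3:176667840-176672916 by 46, to chr3:176801145-176807361 inside the gene by 34, and to chr3:176929126-176931588 by 30. In LNCaP it was joined to chr3:177085395-177094035 by 134 read pairs (112 to 159) and to chr3:177074054-177080979 by 101, an anchor that includes the T-47D one. A LNCaP loop of 97 read pairs reached chr3:177331467-177344591, over exons of LINC00578, 426 kb away, and the inner promoter was joined to the main promoter by 94. In Ishikawa the main promoter was joined by 22 read pairs (13.8 to 33.3) to an anchor in an intron of the gene, chr3:176924733-176934350.

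**Figure D2:**
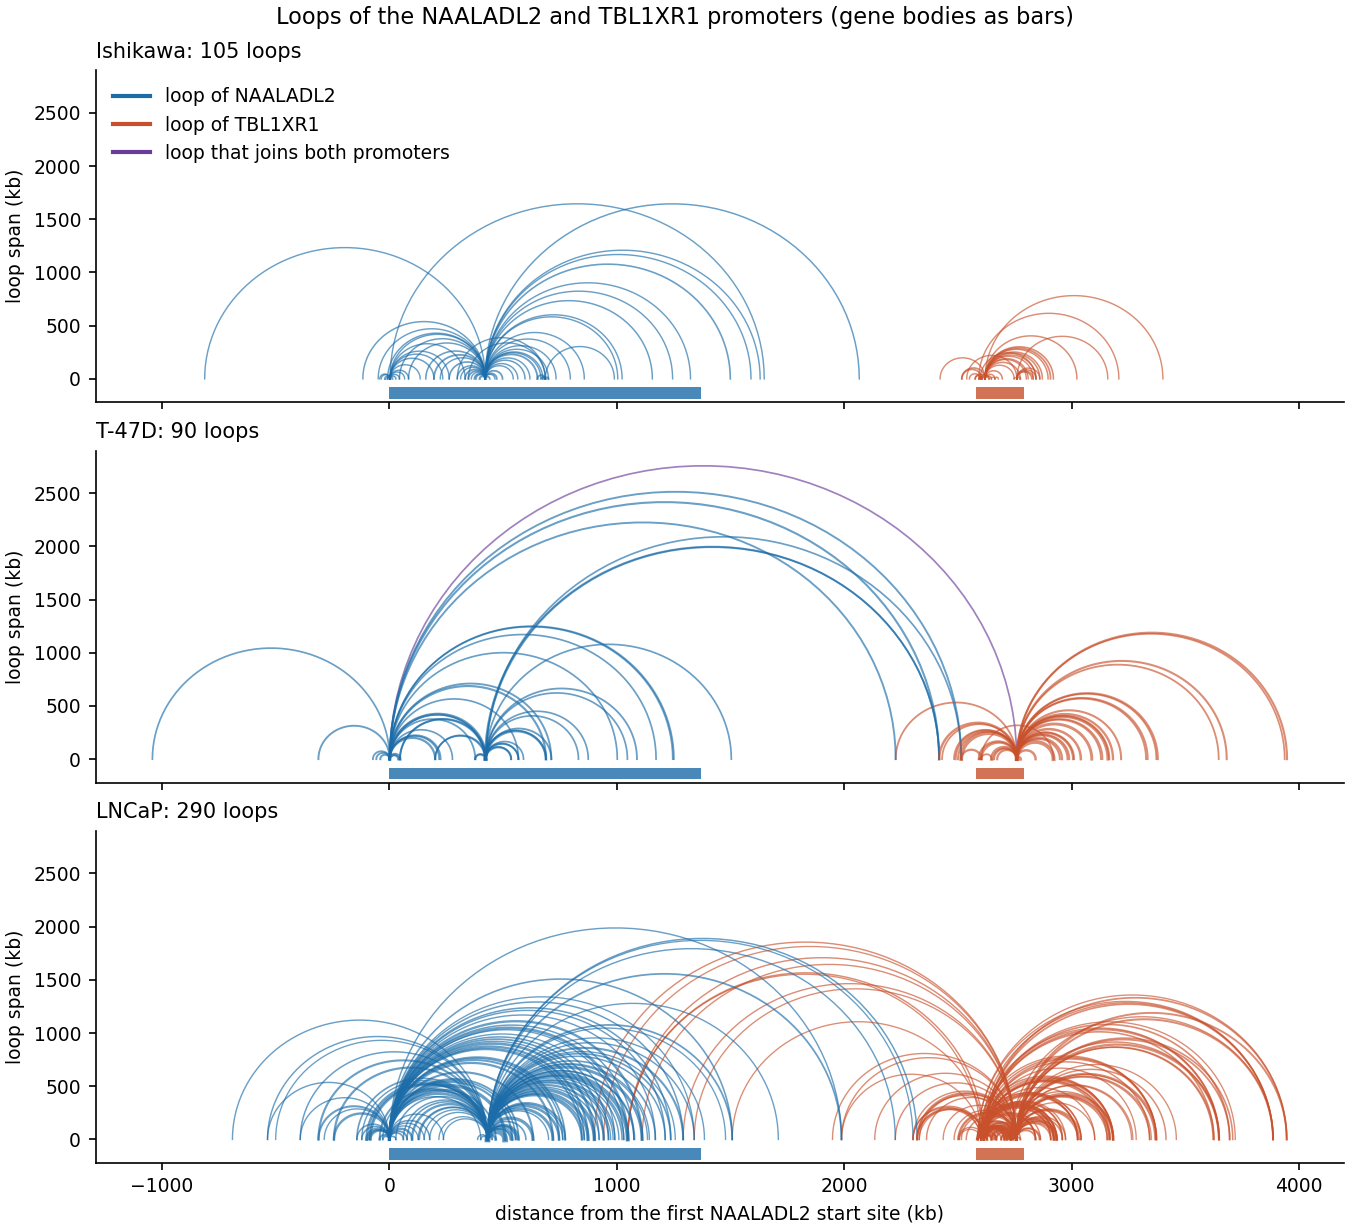
Each arc is a loop of the NAALADL2 (blue) or TBL1XR1 (orange) promoters in Ishikawa, T-47D and LNCaP, drawn from anchor midpoint to anchor midpoint by distance from the first NAALADL2 start site (kb), with its height as its span (kb), its line width rising with read pairs per 100000 and the gene bodies as bars. The 105 Ishikawa loops leave the genes apart, in T-47D a bundle of loops of 1993 to 2757 kb joins the NAALADL2 promoters to the TBL1XR1 side, and in LNCaP orange arcs reach back into NAALADL2.

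Loops of both genes were long. The span, measured between anchor midpoints, had a median of 198 kb for NAALADL2 in Ishikawa (quartiles 50.9 and 387 kb), 375 kb in T-47D (161 and 1011 kb) and 532 kb in LNCaP (268 and 846 kb). For TBL1XR1 the medians were 94.7 kb (29 and 228 kb), 276 kb (164 and 441 kb) and 294 kb (105 and 594 kb). The medians of all loops were 37, 85.8 and 113 kb. Spans of 1 Mb or more were 6 of 65 NAALADL2 loops in Ishikawa, 13 of 48 in T-47D and 19 of 125 in LNCaP, or 9.23%, 27.1% and 15.2%, where all loops gave 0.318%, 2.13% and 2.45%. TBL1XR1 had 0 of 40, 3 of 43 (6.98%) and 22 of 165 (13.3%).

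Long loops of the genes were not all weak in LNCaP. Among LNCaP loops of 300 kb to 1 Mb, the 70 of NAALADL2 had a median of 12 read pairs and the 59 of TBL1XR1 a median of 6, against 4 over all 28507 such loops. In T-47D the medians in this class were 5 for NAALADL2 and 4 for TBL1XR1, against 3. In Ishikawa both genes were at the list's own median of 3, and 47.7% of NAALADL2 loops and 40% of TBL1XR1 loops were at the minimum of 3 read pairs.

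**Figure D3:**
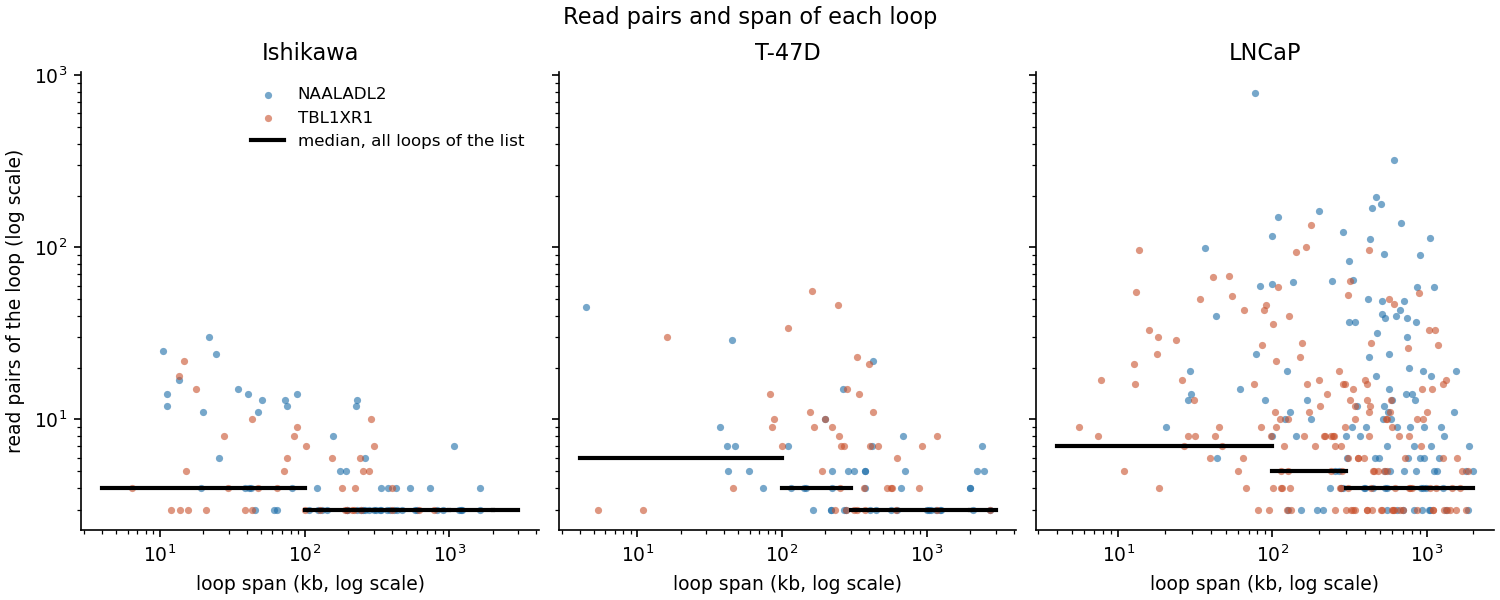
Read pairs of each loop against its span (kb), both on log scales, for NAALADL2 (blue) and TBL1XR1 (orange), with black lines as the median read pairs of all loops of the list in span classes divided at 100, 300, 1000 and 2000 kb. In LNCaP many points lie above the lines beyond 100 kb, up to 323 read pairs at 617 kb, whereas in Ishikawa those beyond 300 kb stay at or near 3.

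The distal regions of NAALADL2 lay mostly within the gene itself, and those of TBL1XR1 most often beyond its 5′ end. Of the NAALADL2 linked anchors 40 of 52 in Ishikawa (76.9%, Wilson interval 63.9 to 86.3), 20 of 28 in T-47D (71.4%, 52.9 to 84.7) and 52 of 74 in LNCaP (70.3%, 59.1 to 79.5) had their midpoint inside the gene, and they held 77.4%, 77.4% and 83.3% of the distal read pairs. None lay inside or beyond TBL1XR1 in any list. Of the TBL1XR1 linked anchors 14 of 25 (56%, 37.1 to 73.3), 24 of 37 (64.9%, 48.8 to 78.2) and 33 of 66 (50%, 38.3 to 61.7) lay beyond the gene's 5′ end, on the side away from NAALADL2. LNCaP alone placed TBL1XR1 anchors inside NAALADL2, 6 of 66, with 33 read pairs or 1.35% of the distal read pairs.

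Distal anchors joined to both genes were counted next. Ishikawa had 0, T-47D had 3 and LNCaP had 11, which is 10.7% and 14.9% of the NAALADL2 anchors and 8.11% and 16.7% of the TBL1XR1 anchors. In Ishikawa the farthest NAALADL2 anchor towards TBL1XR1 ended at chr3:176228204, and the nearest TBL1XR1 anchor began at chr3:176575151, 347 kb further on. These counts moved with the number of read pairs and with span. When each list was thinned to the 351260 read pairs of T-47D, LNCaP kept 0 of its shared anchors, and at 10 read pairs or more per loop T-47D and LNCaP both had 0.

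All 3 T-47D regions lay in the gap between the genes. The first, chr3:176380619-176383583 in an intron of LINC01208, had 5 read pairs to NAALADL2 and 4 to TBL1XR1. The second, chr3:176569862-176576551 over an exon of LINC01208, had 15 and 14, from 3 loops and 1 loop. The third, chr3:176667840-176672916, was intergenic and uneven, with 8 read pairs to NAALADL2 and 56 to TBL1XR1. Most of the NAALADL2 loops involved were over 2 Mb, a span the LNCaP list does not hold, and with loops of 5 kb to 2 Mb alone only the second region remained, with 8 and 14 read pairs. The T-47D list had 28 loops over 2 Mb on chromosome 3, and 6 of them lay in the 3 Mb around the 2 genes.

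Of the 11 LNCaP regions 6 lay inside NAALADL2 and 5 in the gap. Those inside the gene were strongly joined to NAALADL2 and weakly to TBL1XR1. The leading one, chr3:175189402-175218577 over an exon of NAALADL2 and of the lncRNA ENSG00000288104, had 437 read pairs to NAALADL2 (397 to 480) and 14 to TBL1XR1 (7.65 to 23.5). Nearest the TBL1XR1 side the order turned, with 7 read pairs to NAALADL2 and 54 to TBL1XR1 at chr3:176471342-176481072, and 3 and 14 at chr3:176453797-176462883. Over all 11 regions NAALADL2 had 1110 read pairs and TBL1XR1 116, and NAALADL2 was higher in 8, level in 1 and lower in 2. These anchors were well-connected in general, with 36 to 123 partners each, where the median linked distal anchor of LNCaP had 5. They were also wide, at 7.19 to 31 kb against a median of 3.06 kb, and the part of width was not tested.

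**Figure D4:**
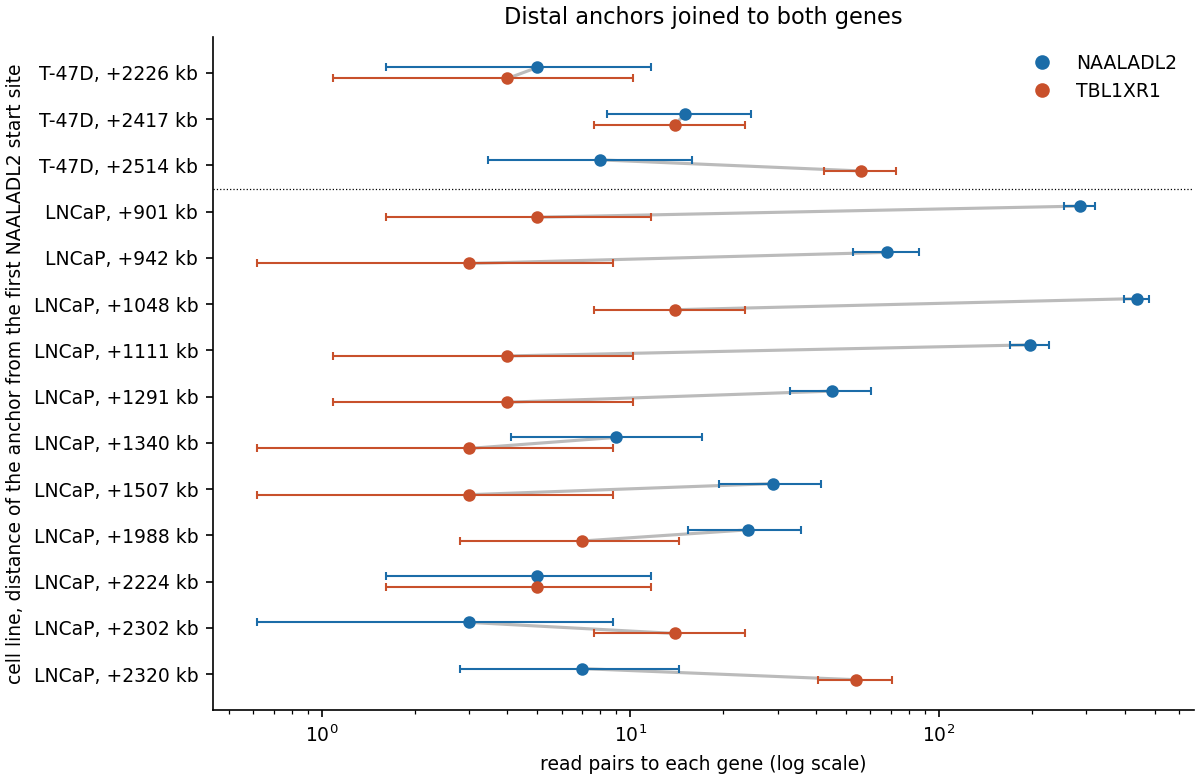
Read pairs (log scale) that join each shared distal anchor to NAALADL2 (blue) and to TBL1XR1 (orange), with 95% exact Poisson intervals, for the 3 T-47D anchors above the dotted line and the 11 LNCaP anchors below it, ordered by distance from the first NAALADL2 start site (kb). In LNCaP the order of the genes differs between the ends of the series, with 286 and 5 read pairs at +901 kb and 7 and 54 at +2320 kb. The gap between the points does not narrow steadily in between.

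A single region was shared by both genes in T-47D and in LNCaP. The LNCaP anchor chr3:176376735-176384162, with 5 read pairs to each gene, contains the T-47D anchor chr3:176380619-176383583, and no Ishikawa loop joined it to either gene. Each of these counts is near the minimum of 3. The 200 bases with the most matches to the motifs searched are shown for this region, for the T-47D and the LNCaP region with the highest smaller count, and for 1 TBL1XR1 distal region found in all 3 lines, the one with most read pairs in T-47D, on the plus strand. Capitals mark matches on either strand to AGATAA, which is read by the family of GATA factors, to TGTTTAC, which is read by forkhead factors, to the GC box GGGCGG given above, and to the motif of ETS factors, CCGGAAG.
Shared in T-47D and LNCaP, chr3:176383021-176383220: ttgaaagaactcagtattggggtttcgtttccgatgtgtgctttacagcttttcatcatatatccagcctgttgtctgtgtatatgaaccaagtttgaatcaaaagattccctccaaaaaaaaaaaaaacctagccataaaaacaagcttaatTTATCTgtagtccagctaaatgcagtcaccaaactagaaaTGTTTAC
Shared in T-47D, chr3:176573404-176573603: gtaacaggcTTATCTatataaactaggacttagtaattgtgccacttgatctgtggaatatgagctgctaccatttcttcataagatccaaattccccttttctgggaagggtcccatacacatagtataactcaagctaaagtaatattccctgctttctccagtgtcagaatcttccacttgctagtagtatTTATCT
Shared in LNCaP, chr3:175201769-175201968: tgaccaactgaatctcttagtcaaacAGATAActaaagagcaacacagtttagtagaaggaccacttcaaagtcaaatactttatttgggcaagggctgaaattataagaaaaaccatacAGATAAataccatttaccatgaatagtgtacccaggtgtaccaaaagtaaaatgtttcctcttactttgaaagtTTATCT
TBL1XR1 distal region found in all lines, chr3:177077553-177077752: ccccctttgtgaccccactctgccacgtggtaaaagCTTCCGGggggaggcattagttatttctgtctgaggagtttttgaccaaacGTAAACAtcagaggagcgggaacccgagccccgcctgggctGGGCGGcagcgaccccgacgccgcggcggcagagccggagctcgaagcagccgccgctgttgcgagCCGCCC
The first holds 1 GATA and 1 forkhead match, the second 2 GATA matches, the third 3 GATA matches, and the fourth 2 GC boxes, 1 forkhead match and 1 ETS match. A match is a description of the letters and shows no binding.

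The promoters of both genes were joined directly in T-47D alone, by 1 loop of 3 read pairs over 2.76 Mb between chr3:174153650-174161625 and chr3:176911162-176917497. The count is the lowest a list can hold, and the span is longer than that of any loop in the LNCaP list. The only other protein-coding promoter joined to either gene in any list was that of NLGN1, a postsynaptic adhesion gene upstream of NAALADL2, with 3 read pairs to NAALADL2 over 1043 kb in T-47D.

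Loops of 2 Mb or less that passed over each position, at steps of 25 kb, gave a profile of the locus that does not rest on promoters. In T-47D this fell to 6 loops with 20 read pairs in the gap, was lower still upstream of NAALADL2, with 1 loop of 3 read pairs at the left end of the profile, and rose to 77 loops with 557 read pairs at the TBL1XR1 promoter. No T-47D anchor lay in the 720 kb at chr3:175660320-176380618. In Ishikawa the lowest point of the gap was 7 loops with 23 read pairs, near chr3:176225000, and the most loops were 83, with 372 read pairs, beyond the 5′ end of TBL1XR1. In LNCaP the gap never fell below 108 loops with 566 read pairs, and the peak of 508 loops with 15551 read pairs was inside NAALADL2. Per 100000 read pairs of the list, the lowest points of the gap were 2.21 (Ishikawa), 5.69 (T-47D) and 31.4 (LNCaP), and the left end of the profile was lower in T-47D (0.854) and LNCaP (16.1).

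**Figure D5:**
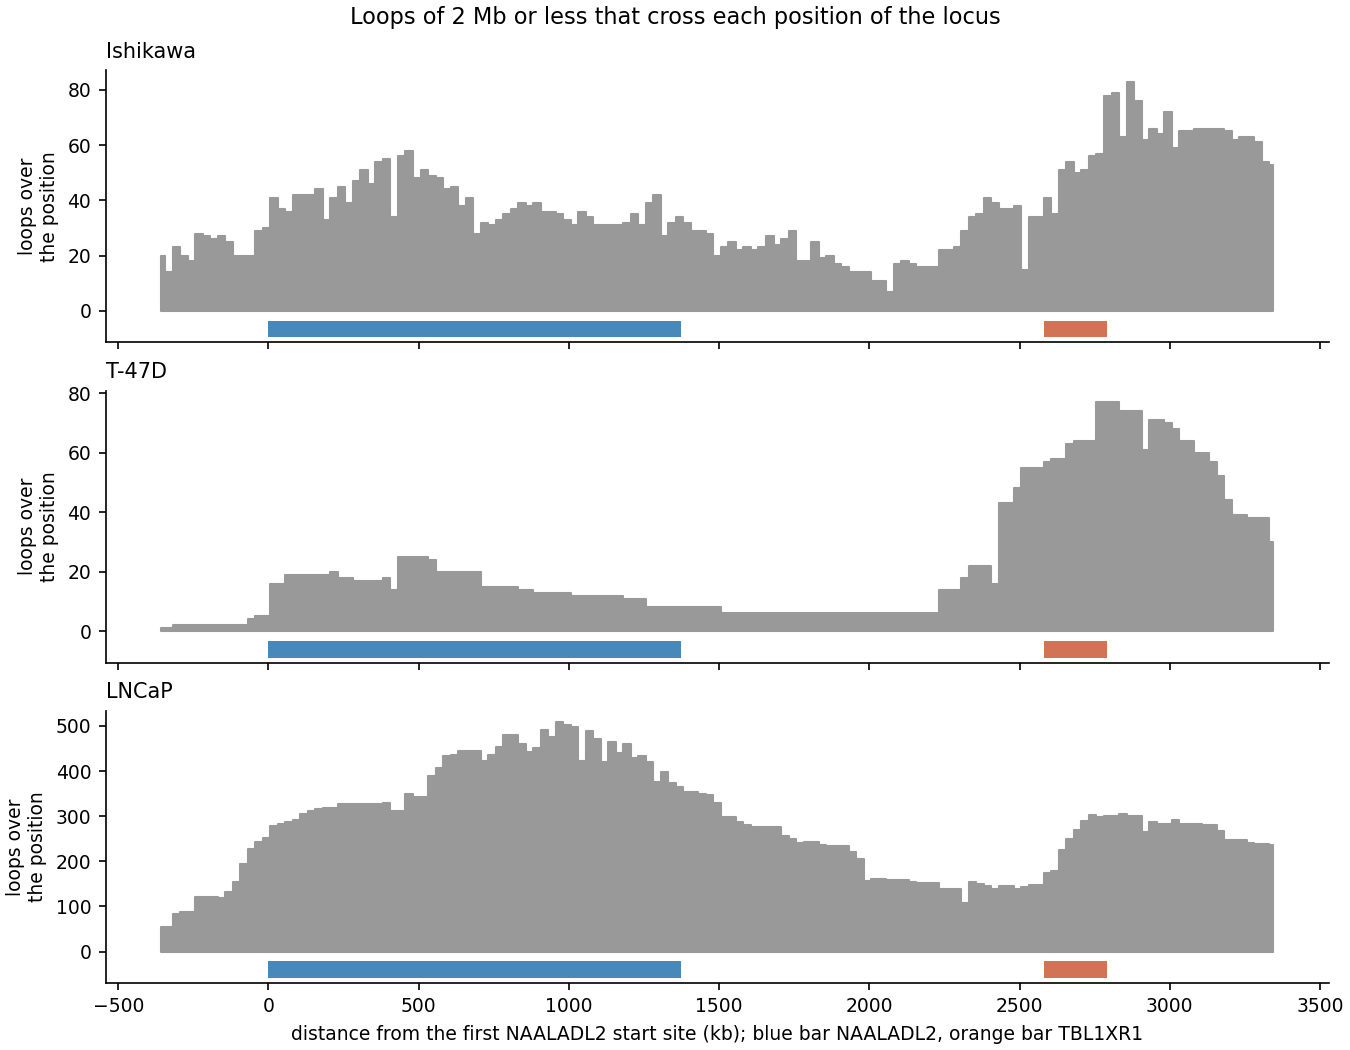
Number of loops of 2 Mb or less that cross each position against its distance from the first NAALADL2 start site (kb), at steps of 25 kb, with a separate vertical scale for each line and the gene bodies as bars. Ishikawa is lowest in the gap between the genes (7 loops), T-47D is low both there (6 loops) and upstream of NAALADL2, and LNCaP is highest inside NAALADL2 (508) and stays at 108 or more across the gap.

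Linked anchors of the 2 genes were compared between lines. Overlap of 1 bp or more with any anchor of the other list was given by 19.2% of NAALADL2 and 28% of TBL1XR1 anchors for Ishikawa in T-47D (7.16% of all linked distal anchors), and by 50% and 52% for Ishikawa in LNCaP (17.5%). For T-47D the shares were 60.7% and 75.7% in Ishikawa (40.7%) and 53.6% and 56.8% in LNCaP (42.8%). For LNCaP they were 68.9% and 77.3% in Ishikawa (36.2%) and 18.9% and 37.9% in T-47D (13.9%). All 12 shares were above the share over all linked anchors of the list. Several were close to the share over the linked anchors of the last 32 Mb of chromosome 3, where both genes lie, which was 11%, 18.4%, 59.9%, 41.2%, 63.5% and 24.1% in the same order, and the 18.9% of NAALADL2 was below it. Shares in Ishikawa also rest on anchors that cover 43.9% of the stretch around the genes. The median linked anchor of NAALADL2 and TBL1XR1 was wider than that of the list. It was 6.56 and 6.67 kb in Ishikawa (5.06 over all), 2.58 and 2.69 in T-47D (2.37), and 5.16 and 3.92 in LNCaP (3.06). The part of width in these shares was not tested.

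Anchors joined to the same gene in another line were fewer in 11 of the 12 comparisons, and as many (7 of 25) for TBL1XR1 anchors of Ishikawa in T-47D. Of the T-47D anchors 11 of 28 for NAALADL2 (39.3%) and 18 of 37 for TBL1XR1 (48.6%) overlapped an anchor of the same gene in LNCaP. When anchors of a gene were merged over the lists into regions, NAALADL2 had 108 regions, 8 of them in all 3 lines and 80 in 1, and TBL1XR1 had 96, 6 in all 3 and 73 in 1. T-47D and LNCaP alone had 11 TBL1XR1 regions in common and 4 NAALADL2 regions, and Ishikawa and LNCaP alone had 5 and 12. Neither the overlaps with the same gene nor these regions were counted over all genes, so the numbers are a description only. The lists also differ in read pairs and in the sequence their anchors cover.

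The 5 merged TBL1XR1 regions with most read pairs in T-47D were all found in the other lines too. The region at chr3:177071514-177080979 had 7 read pairs (Ishikawa), 59 (T-47D) and 177 (LNCaP), or 0.673, 16.8 and 9.8 per 100000 of the list. That at chr3:176797263-176809749, inside the gene, had 11, 38 and 130, or 1.06, 10.8 and 7.2 per 100000. An intergenic region at chr3:176664846-176680438 had 16, 56 and 8, or 1.54, 15.9 and 0.443 per 100000. The intronic region nearest the main promoter, chr3:176924733-176934350, had 28, 30 and 38 (2.69, 8.54 and 2.1 per 100000), and chr3:177305772-177323147, in an intron of LINC00578, had 3, 28 and 53 (0.288, 7.97 and 2.94 per 100000). Per 100000 read pairs, T-47D was highest at each of these 5 regions. They were chosen for their T-47D read pairs, so this order follows in part from the choice. The choice also rests on the merging, since the last region sums neighbouring anchors in T-47D (21 and 7 read pairs) and in LNCaP. A single T-47D anchor outside the 5 regions, chr3:177242889-177245574, had 23 read pairs to the main promoter, more than either. Of the NAALADL2 regions in all 3 lines 6 lay in the gene, and the strongest of them in Ishikawa and LNCaP, chr3:174847646-174913206, had 23, 10 and 290 read pairs, or 2.21, 2.85 and 16.1 per 100000. That region spans 65.6 kb and sums the read pairs of 2 anchors of Ishikawa, 1 of T-47D and 3 of LNCaP. The regions at chr3:174688257-174703694 and chr3:174716070-174727883 were highest in LNCaP (190 and 98 read pairs, or 10.5 and 5.43 per 100000). They had 11 each in T-47D (3.13 per 100000) and 3 each in Ishikawa (0.288).

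The distal anchors of both genes were joined to few other genes. In Ishikawa 0 of 52 NAALADL2 and 0 of 25 TBL1XR1 anchors were linked to a further protein-coding gene, where 34.3% of all linked distal anchors were joined to more than 1. In T-47D these were 3 of 28 and 4 of 37 (10.7% and 10.8%, against 51.2%), and in LNCaP 13 of 74 and 11 of 66 (17.6% and 16.7%, against 60.1%). The genes in common were the other member in all but 3 cases, 2 anchors with NLGN1 and NAALADL2 in LNCaP and 1 with GNB4 and TBL1XR1 in T-47D. Some anchors held start sites of noncoding genes, 10 of 74 NAALADL2 anchors and 13 of 66 TBL1XR1 anchors in LNCaP. These were 6 of 52 and 2 of 25 in Ishikawa, and 2 of 28 and 4 of 37 in T-47D. The share over all linked distal anchors was not counted, so the numbers are a description only. Anchors over LINC00578 had 175 read pairs to TBL1XR1 in LNCaP and 11 in T-47D. The anchor over the lncRNA gene ENSG00000288104 had 437 to NAALADL2 in LNCaP.

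Each of the other corepressor genes described had fewer linked distal anchors than TBL1XR1 in every line. TBL1XR1 was selected on this count, so the order follows in part from the choice. NCOR1, which encodes NCoR, had 6 (Ishikawa), 0 (T-47D) and 22 (LNCaP). HDAC3, the deacetylase of the complex, had 0, 2 and 3. TBL1X, the paralog of TBL1XR1, had 0, 0 and 8, and GPS2, a further subunit, had 0 in every list. Of these 4 genes 1, 1 and 3 had a linked distal anchor, with medians of 0, 0 and 5.5 beside 1, 0 and 1 over all protein-coding genes. The 5 relatives of NAALADL2 had medians of 1, 0 and 1, the same as over all protein-coding genes. Of them 3, 1 and 3 had a linked distal anchor (60%, 20% and 60%, against 52.5%, 34.7% and 52.4%). FOLH1 had 0 in every list, LNCaP included, and TFRC, the transferrin receptor, was highest with 8, 6 and 11.

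The 20 listed neighbours along the same arm had fewer linked distal anchors than both genes in T-47D and LNCaP. In Ishikawa some had more than TBL1XR1. Both genes were selected on high counts, so the order follows in part from the choice. The list leaves out other genes of the arm, among them MECOM with 55 in Ishikawa, more than NAALADL2. Loops were dense in the last 32 Mb of chromosome 3, at 253 (Ishikawa), 41.3 (T-47D) and 120 (LNCaP) per Mb. The rest of the chromosome had 40.6, 9.43 and 41.4 per Mb. Of 20 listed genes 18 (Ishikawa), 14 (T-47D) and 14 (LNCaP) had a linked distal anchor, or 90%, 70% and 70%. Over all protein-coding genes the shares were 52.5%, 34.7% and 52.4%, and the medians 1, 0 and 1. The 20 listed genes had medians of 7, 2 and 1.5. The highest was PLD1, a phospholipase gene, with 47 in Ishikawa, ECT2, a regulator of cytokinesis, with 10 in T-47D, a value it shared with ZNF639, and in LNCaP MFN1, a gene of mitochondrial fusion, and PLD1 with 5 each. PIK3CA, the catalytic subunit of a phosphoinositide kinase, had 17, 7 and 1.

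Over the percentile ranks of linked distal anchors in the 3 lists, each of the 2 genes was the nearest of all protein-coding genes to the other, at a Euclidean distance of 0.232 percentile points. This follows in part from their selection on high counts. CTBP2, a transcriptional corepressor gene on chromosome 10 with 28, 9 and 39 linked distal anchors, was next for both, and GSE1 on chromosome 16, with 20, 34 and 26, came after it.

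Sequence composition of the distal anchors was described with 6 motifs on both strands. The anchors of both genes were poorer in G and C than the linked distal anchors of the same list. GC content was 35.9% for NAALADL2 and 42% for TBL1XR1 in Ishikawa (43.3% over all), 35.9% and 39.9% in T-47D (46.5%), and 34.8% and 37.5% in LNCaP (41.8%). AGATAA, the GATA motif, was more frequent, at 1.06 and 0.852 per kb in Ishikawa (0.714 over all), 1.07 and 0.852 in T-47D (0.622), and 1.21 and 1.1 in LNCaP (0.818). GGGCGG was less frequent in each list, at 0.127 and 0.178 per kb (0.225), 0.0842 and 0.165 (0.486), and 0.0521 and 0.0947 (0.213). Both directions go with the base composition, whose part in the motif counts was not tested.

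The forkhead motif TGTTTAC occurred at 0.221 per kb in NAALADL2 anchors and 0.146 in TBL1XR1 anchors of Ishikawa (0.149 over all), 0.277 and 0.238 in T-47D (0.176), and 0.233 and 0.213 in LNCaP (0.214). The full estrogen response element, read as GGTCA, any 3 bases, then TGACC, was found once in the NAALADL2 anchors of Ishikawa and once in those of LNCaP, and in no anchor of TBL1XR1 or of T-47D, where 0.605%, 0.723% and 0.273% of all linked distal anchors held it. The androgen or glucocorticoid element, read as G, any base, ACA, any 3 bases, TGT, any base, C, was in 7 of 74 NAALADL2 and 9 of 66 TBL1XR1 anchors of LNCaP (9.46% and 13.6%, against 7.32%). The median anchor was wider for these genes there, at 5.16 and 3.92 kb against 3.06 kb, and per kb the element was no more frequent, at 0.0107 and 0.0194 against 0.0215. CCGGAAG, the ETS motif, was in as many LNCaP anchors of each gene (9.64% of all linked distal anchors). Per kb it was less frequent there, at 0.0122 and 0.0237 against 0.0305. In the other lines the shares of anchors with it were below that of the list, at 9.62% and 8% in Ishikawa (15%) and 10.7% and 5.41% in T-47D (12.1%).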

How the data were processed

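H3K27ac HiChIP had been made from 7 samples of 3 cell lines, and 1 loop list per line was analysed. The authors aligned reads to hg19 with HiC-Pro, called loops with hichipper and removed loops with fewer than 3 reads or an FDR of 0.05 or more. Versions are not given in the sources used here. The deposited values are counts of read pairs per loop, not normalized, and the samples of a line had been merged. The 4 parts of the Ishikawa list were summed over identical anchor pairs. Pairs of 1 anchor with itself were left out, and no column of another sample was present (0).

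Promoters were 500 bp windows on every GENCODE release 44 start site (GRCh37), and an anchor overlapping one by 1 bp or more belonged to the gene. Intervals are exact Poisson for counts and Wilson for shares, at 95%. Places count genes with more links, plus 1. The members and the gene lists were chosen with earlier results of these data known. Named were the 2 genes, up to 5 loops and shared anchors each, genes at joined anchors, the extremes of each list and the 3 nearest genes by percentile rank. The 20 neighbours on 3q were listed by position alone. A further gene of the corepressor list is not reported here. Sequence came from the GRCh37 genome, on which 100% of member anchor edges lay within 5 bases of GATC. The counting step was tested on simulated loops and returned 150 of 150 genes unchanged. Alternatives were minimums of 5 and 10 read pairs, thinning, 2000 bp windows, 1 start site per gene, another definition of distal, Ishikawa parts and stricter overlap. Python 3.11.15, numpy 2.4.6, pandas 2.3.3, scipy 1.17.1 and matplotlib 3.10.9 were used.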

Additional observations from a re-analysis of the deposited data

How the results depend on the processing

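Each list is a single merged value, so leaving out a replicate was possible only for the Ishikawa parts. No paired analysis was possible because no result comes from a test and the lists hold no replicate. Windows of 2000 bp changed no count of linked anchors, read pairs or shared anchors beyond the spread allowed for it (1.5 times for counts of anchors, the counting interval for read pairs). Values follow in the order NAALADL2, TBL1XR1, and read pairs are per 100000 of the list.

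With 5 read pairs or more, linked distal anchors were 20 and 14 in Ishikawa and 14 and 24 in T-47D, read pairs were 78.1 for NAALADL2 in T-47D and 288 and 160 in LNCaP, and LNCaP had 4 shared anchors. With 10 or more, linked anchors were 15 and 4 in Ishikawa, 3 and 11 in T-47D and 42 and 32 in LNCaP, read pairs 54.1 and 16.2, 60.9 and 148, and 337 and 171, and shared anchors 0 in T-47D and LNCaP. After thinning, linked anchors were 15 and 11 in Ishikawa and 38 and 28 in LNCaP, read pairs 28.5 for TBL1XR1 in Ishikawa and 349 and 188 in LNCaP, and shared anchors 0 in LNCaP. With 1 start site per gene, linked anchors were 16 and 0 in Ishikawa and 0 for TBL1XR1 in T-47D and LNCaP, read pairs 11 and 0, 46.7 and 0, and 81.9 and 0, and shared anchors 0 in T-47D and LNCaP. The 5′ end of the TBL1XR1 record, chr3:176945788, is outside the main group of start sites and lay in no anchor. With distal anchors over no promoter of any gene, LNCaP had 5 shared anchors. Ishikawa loops in 2 or more parts gave 18 and 10 linked anchors and 19 read pairs for TBL1XR1.

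The remaining alternatives for links were chosen after seeing the data. Start sites of protein-coding transcripts gave 35.5 and 6.54 read pairs and 12 linked TBL1XR1 anchors in Ishikawa, 67.5 read pairs for NAALADL2 in T-47D and 93.6 for TBL1XR1 in LNCaP, below its 121 in T-47D. Spans of 5 kb to 2 Mb gave 71.2 read pairs for NAALADL2 and 1 shared anchor in T-47D. Without 1 Ishikawa part at a time, NAALADL2 had 33.8 to 47.7 read pairs and 36 to 51 linked anchors, TBL1XR1 21.4 to 22.6 and 20 to 25, and shared anchors were 0. NAALADL2 had more linked anchors than TBL1XR1 in Ishikawa and LNCaP, and fewer in T-47D, under each of these except 1 start site per gene, which took TBL1XR1 to 0.

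Overlap between lists depended most on its definition. With 50% of both anchors covered it was 0% and 8% for Ishikawa in T-47D, 5.77% and 16% for Ishikawa in LNCaP, 0% and 21.6% for T-47D in Ishikawa, 10.7% and 21.6% for T-47D in LNCaP, 14.9% and 21.2% for LNCaP in Ishikawa, and 4.05% and 13.6% for LNCaP in T-47D. With 10 read pairs or more in both lists, NAALADL2 gave 6.67% for Ishikawa in T-47D, 0% for T-47D in LNCaP, 40.5% for LNCaP in Ishikawa and 0% for LNCaP in T-47D, and TBL1XR1 90.9% for T-47D in Ishikawa, 81.8% for T-47D in LNCaP and 62.5% for LNCaP in Ishikawa. Against anchors of the same gene, T-47D in Ishikawa fell to 39.3% and 21.6%, and LNCaP in Ishikawa to 33.8% and 19.7%. The cause of these differences was not tested.

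The number of read pairs in loops limits most the shared anchors, whose smaller counts were 3 to 14 read pairs in a list with a minimum of 3, and the T-47D list, which had the fewest read pairs. Anchors of different width in the 3 lists limit any match between lines.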
